A study of Homo sapiens with 8 samples.

Results

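The keratin gene clusters are 2 stretches of the human genome that hold the genes of the intermediate filament proteins of epithelia and hair. They were chosen by position in hg19. The type I region was chr17:38800001-39800000 and the type II region chr12:52560001-53350000. Members were the islands of H3K27me3, stretches enriched in ChIP reads over input, that overlapped either region. They numbered 84 of 58144 islands in LY19WT and 129 of 47432 in LY19Y646F, or 213 of 105576 in all. LY19WT and LY19Y646F are untreated human B-cell lymphoma lines at passage 10 to 15. LY19WT carried wild-type EZH2, and LY19Y646F expressed EZH2-Y646F constitutively from a CMV promoter, so the mutant came from a transgene and not from the endogenous gene. Each line had 3 ChIP libraries and 1 input library. The authors pooled the replicates of each line and deposited 1 island list for it. Every value is therefore 1 value per line, without a replicate spread, and the lines were not tested against each other. Anything else that differed between the lines cannot be told apart from the EZH2 difference. RNA was not among the data used here, so neither keratin expression nor the B-cell identity of the lines was checked against markers.

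Keratins assemble as pairs of a type I (acidic) and a type II (basic) chain. Each type is encoded by a tight cluster of genes, and epithelial cells use particular pairs, such as KRT5 with KRT14 in basal epidermis, KRT1 with KRT10 in differentiating epidermis and KRT8 with KRT18 in simple epithelia. Keratin-associated proteins cross-link the filaments of the hair shaft. H3K27me3 is laid down by Polycomb repressive complex 2, whose catalytic subunit is EZH2, and it marks many genes of other lineages in differentiated cells. EZH2 mutated at Y646 is known to favour H3K27 that already carries methyl groups.

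The RefSeq gene tables used here follow GRCh38.p14, a build other than that of the islands. They served for names, order and sequence, and no gene was placed on an island. All 28 type I keratins, 34 keratin-associated protein genes, 26 type II keratins and KRT18 on the lists were matched. On chromosome 17 the order ran from KRT222 through KRT24 to KRT28, KRT10, KRT12, KRT20, KRT23, KRT39 and KRT40 to the keratin-associated protein genes. The hair keratins KRT33A to KRT36 followed, and then the epithelial keratins KRT13, KRT15, KRT19, KRT9, KRT14, KRT16 and KRT17. On chromosome 12 it ran from KRT80 and KRT7 through the hair keratins KRT81 to KRT86 to KRT75, the KRT6 genes, KRT5, KRT71 to KRT74, KRT2, KRT1 and the others, and ended with KRT8 and the type I gene KRT18. No other protein-coding gene lay between the first and last of the 62 genes on chromosome 17 or of the 27 on chromosome 12. SMARCE1 and EIF1 flanked the type I cluster, and SMIM41 and EIF4B the type II cluster.

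Where a sequence was matched, the promoters of these genes were poor in CpG dinucleotides, the sequence feature that is dense at many Polycomb targets. RefSeq promoter sequences were matched for 67 of the 89 genes. The others were KRT222, KRT23, KRT13, KRT15, KRT19, KRT14, KRT16, KRT17, KRTAP9-8, KRT80, KRT7, KRT86, KRT81, KRT83, KRT6B, KRT6C, KRT6A, KRT72, KRT1, KRT77, KRT78 and KRT18. Matched were 33 of 34 keratin-associated protein genes, 20 of 28 type I and 14 of 26 type II keratins. The matched set thus leans to keratin-associated protein genes, and CpG counts of the unmatched genes are not known. In the 250 bases before the start, the median number of CpG was 1 in the 67 matched and 11 over 27326 promoters of the table. The highest count among the 67 was 7. Of all promoters, 15.4% had at most 1. The letters TATAAA, on either strand, occurred in 14 of 20 type I keratin, 29 of 33 keratin-associated protein and 6 of 14 type II keratin promoters, and in 11.1% of all promoters of the same length. These counts describe the windows and do not show a factor bound there. The promoters of an epidermal type I keratin, a hair type I keratin and a basal epidermal type II keratin are shown as examples of the range from 0 to 6 CpG. Capitals mark CpG and TATAAA, and each runs 5′ to 3′ along the gene. The coordinates belong to GRCh38.p14 and cannot be set against the hg19 positions used for islands.
KRT10, chr17:40822615-40822864, minus strand, GRCh38.p14: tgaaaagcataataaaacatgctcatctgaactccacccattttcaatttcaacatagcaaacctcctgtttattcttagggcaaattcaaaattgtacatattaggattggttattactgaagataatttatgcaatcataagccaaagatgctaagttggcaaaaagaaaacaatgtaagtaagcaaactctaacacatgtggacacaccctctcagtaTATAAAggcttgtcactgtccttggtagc
KRT31, chr17:41397609-41397858, minus strand, GRCh38.p14: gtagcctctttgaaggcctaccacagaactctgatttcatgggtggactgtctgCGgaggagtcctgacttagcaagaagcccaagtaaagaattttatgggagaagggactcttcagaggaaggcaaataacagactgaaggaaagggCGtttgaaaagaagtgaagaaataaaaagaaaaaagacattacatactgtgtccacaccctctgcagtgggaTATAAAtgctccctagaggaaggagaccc
KRT5, chr12:52520395-52520644, minus strand, GRCh38.p14: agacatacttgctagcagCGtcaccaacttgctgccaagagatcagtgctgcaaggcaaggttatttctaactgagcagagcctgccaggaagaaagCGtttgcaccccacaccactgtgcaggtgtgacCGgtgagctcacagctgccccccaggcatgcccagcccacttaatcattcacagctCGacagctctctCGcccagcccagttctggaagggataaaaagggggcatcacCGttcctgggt
KRT10, an epidermal type I keratin, had no CpG in this window, KRT31, a hair keratin, had 2, and KRT5, the basal epidermal type II keratin, had 6. KRT10 and KRT31 held TATAAA and KRT5 did not.

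Both keratin regions were covered by H3K27me3 islands over most of their length in both lines. In the type I region, islands covered 67.0% in LY19WT (670.4 kb) and 68.5% in LY19Y646F (684.8 kb). In the type II region they covered 82.9% (655.0 kb) and 81.9% (647.2 kb). The lines thus differed by 1.44 percentage points in favour of LY19Y646F in the type I region and by 0.99 points (-0.99, LY19Y646F minus LY19WT) in the type II region. Across the span of the lists coverage was 18.7% in LY19WT and 12.9% in LY19Y646F, a ratio of 0.692, where the ratios in the keratin regions were 1.02 and 0.988. The sign of these small differences depended on the choices made. With FDR limited to 1e-10 the type I difference was -0.84 points. Without the fifth 100 kb window of the region, left out after seeing the data, it was -2.89 points. Widening the type II region by 50 kb at both ends turned its difference to 1.93 points, and limiting the LY19WT list to the covered length of LY19Y646F turned it to 6.96 points.

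Coverage this high in both lines was rare along the genome. Of 2783 tiles of 1 Mb laid end to end over the autosomes, 1.37% were covered by at least 50% in both lines, and of 3521 tiles of 0.79 Mb, 1.93%. The median tile of 1 Mb was 13.7% covered in LY19WT and 6.84% in LY19Y646F. Tiles of 1 Mb covered at least as much as the type I region numbered 83 in LY19WT and 8 in LY19Y646F, and 1 tile reached both values. For the type II region, 34 tiles of its length reached its share in LY19WT and 5 in LY19Y646F, and 0 reached both. Tile edges were not set to gene clusters as the region limits were. Of the tiles that overlapped a keratin region, 0 reached both values of that region. The ranks therefore partly carry this difference in placement, whose part was not tested. They describe 2 lists and are not a test.

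**Figure D1:**
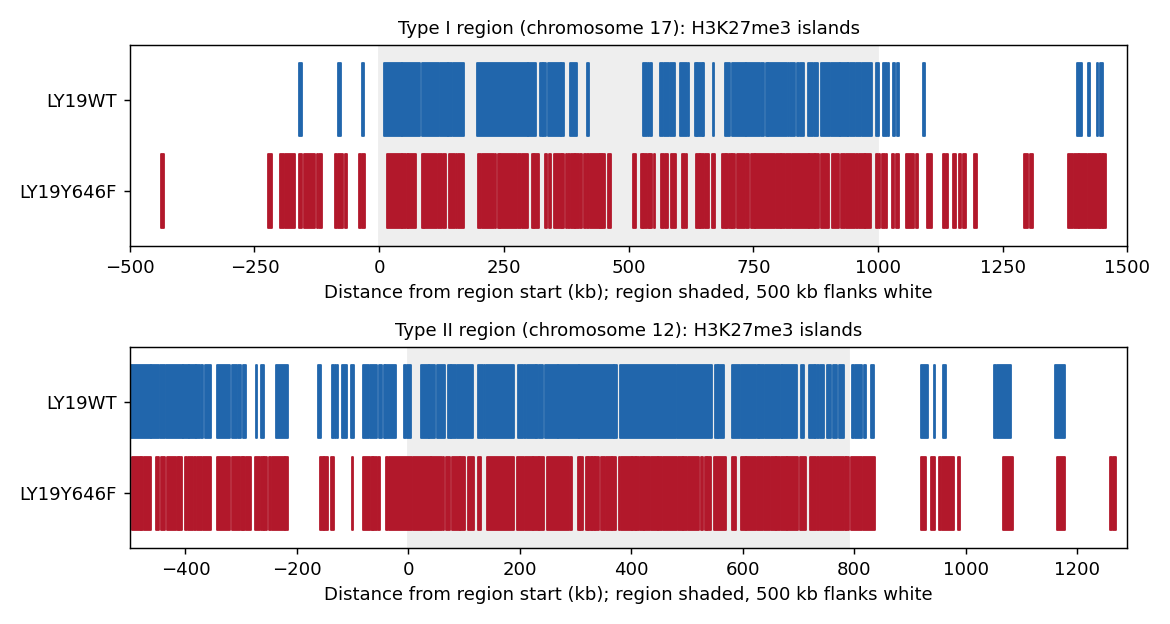
Islands of H3K27me3 in LY19WT (blue) and LY19Y646F (red) along the type I and type II keratin regions (shaded) and their 500 kb flanks, by distance from the region start in kb. Islands fill most of both regions in both lines, and the type I flanks hold 13 islands in LY19WT and 36 in LY19Y646F.

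Beyond the limits of the type I region, which are positions set by the rule and not measured gene edges, island coverage was low in LY19WT and higher in LY19Y646F. In LY19WT the 500 kb before the type I region held 3 islands over 3.08% of the length, and the 500 kb after it held 10 islands over 8.8%. In LY19Y646F the same flanks held 13 islands over 21.9% and 23 islands over 32.9%. The difference between the lines was thus 18.8 and 24.1 points in the flanks, against 1.44 inside and 3.74 over chromosome 17. With flanks of 250 kb the difference over both flanks was 28.9 points, and with 1 Mb it was 7.15, against 21.5 at 500 kb. The flanks of the type II region were themselves rich in islands on the left, at 57.8% in LY19WT and 60.2% in LY19Y646F, and less so on the right, at 18.2% and 26.4%. Over both type II flanks the difference was 5.32 points, and it turned to -6.1 points with flanks of 1 Mb. The median input density of type I flank islands, divided by the autosomal island median, was 0.946 on the left and 1.01 on the right in LY19WT, and 1.15 and 0.891 in LY19Y646F. The part of input in the flank difference was not tested.

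The islands nearest the region edges show where the limits fell. The first LY19WT island inside the type I region began at 38810401 and spanned 35.2 kb, and the last before it, from 38766001 to 38770400, spanned 4.4 kb with an authors' fold of 2.36. The first LY19Y646F island inside began at 38815001 and spanned 30.4 kb, after a 5.8 kb island that began at 38765001. At the right edge the last island inside began at 39795801 in both lines, and the next began at 39810801 in LY19WT and 39801401 in LY19Y646F. The start of the type II region fell inside a LY19Y646F island of 42.0 kb, from 52524801 to 52566800, which counted as a member. LY19WT islands covered 51.9% of it, and the first LY19WT member there ran from 52558001 to 52564000, after an island that began at 52552601. At its right edge the last members ended at 53342400 in LY19WT and at 53350400 in LY19Y646F, and the next islands began at 53355201 and 53354801.

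Coverage along the type I region had a dip in the middle, deeper in LY19WT. Islands took up at least 50% of 7 of the 10 windows of 100 kb in LY19WT and of 9 in LY19Y646F, against 17.1% and 9.56% of 29652 windows over the genome. With windows of 50 kb it was 15 of 20 in each line, so the difference between the lines was not seen at that size. All 7 windows of 100 kb were shared, against 4.71% of windows covered to that extent in both lines. The first 4 windows were covered to 85.2%, 69.2%, 99% and 70.8% in LY19WT and to 70%, 62.8%, 90% and 62.4% in LY19Y646F. The fifth, from 39200001 to 39300000, stood at 5% in LY19WT and 45.4% in LY19Y646F. The sixth and the seventh were also lower than the outer windows in both lines, and stood at 42.4% and 46.6% in LY19WT and at 50.4% and 52.4% in LY19Y646F. Toward the right end coverage was high again in both lines, and the last 3 stood at 91.6%, 76.4% and 84.2% in LY19WT and 84.6%, 90.8% and 76% in LY19Y646F. LY19WT was covered more in 6 of the 10 windows and LY19Y646F in 4, where 34.8% and 25.5% of all windows were. None of the 10 differed by 50 points or more, a size reached by 9.02% of windows toward LY19WT and 2.49% toward LY19Y646F. With windows of 50 kb, 1 of 20 differed by that much, toward LY19Y646F. No window of either region lacked islands in both lines, against 39.6% of windows. The left flank had a window that differed by 62.2 points, from 38600001 to 38700000, covered to 5.6% in LY19WT and 67.8% in LY19Y646F.

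The type II region had no such dip. In both lines islands took up at least 50% of each of the 7 windows of 100 kb that lay wholly inside it. They ran from 71.8% to 99.2% in LY19WT, highest from 53000001 to 53100000, and from 66.8% to 91.2% in LY19Y646F, highest from 52700001 to 52800000. LY19WT was covered more in 5 of them and LY19Y646F in 2. The difference was widest from 52800001 to 52900000, at 96.2% in LY19WT and 73.8% in LY19Y646F.

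**Figure D2:**
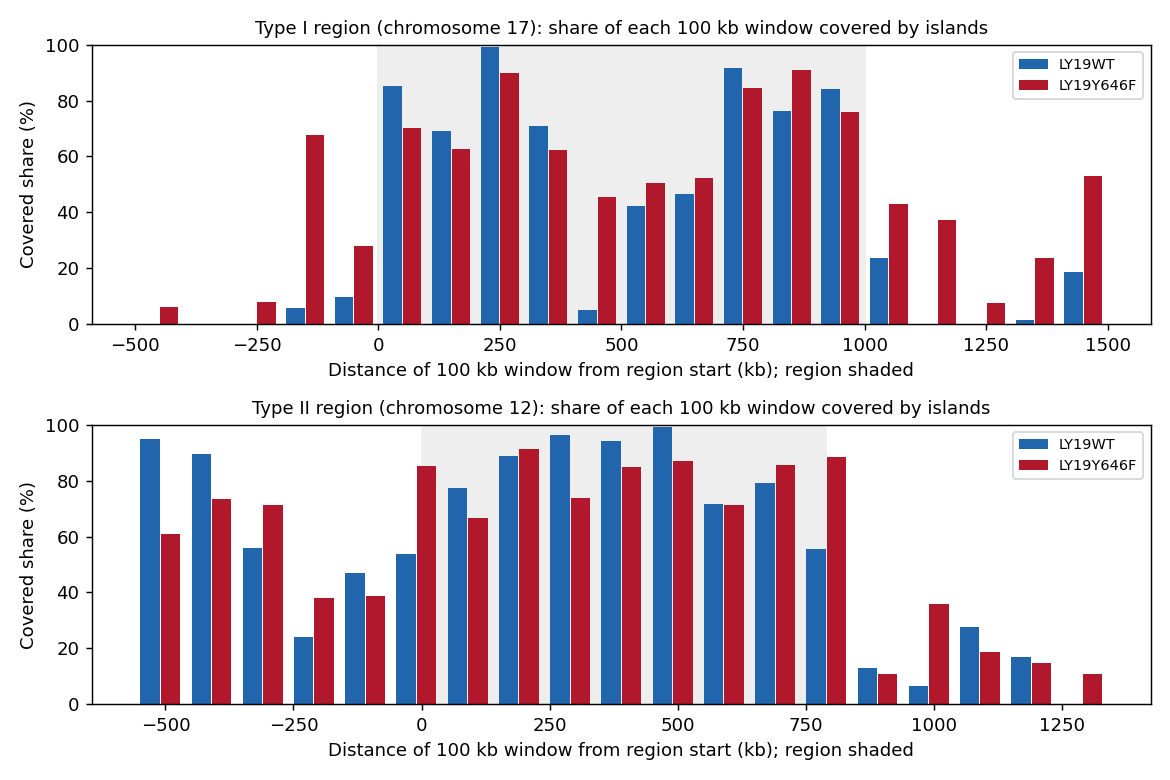
Share of each 100 kb window covered by islands in LY19WT (blue bars) and LY19Y646F (red bars), by distance of the window from the region start in kb, with the region shaded and windows at the type II edges lying partly outside it. In the type I region the fifth window is covered to 5% in LY19WT and 45.4% in LY19Y646F, and the windows next to that region are lower in LY19WT than in LY19Y646F.

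The longest stretch of the type I region without a LY19WT island ran from 39221601 to 39328400, over 106.8 kb. Wholly or in part it held 6 LY19Y646F islands, which covered 41.4% of the stretch, with authors' folds from 1.41 to 2.84 and an input density 1.06 times the autosomal median of that line. The longest of the 6 ran from 39222401 to 39242400, with 837 ChIP and 180 input reads and a fold of 1.77. From 39264201 to 39308400, a stretch of 44.2 kb, neither line had an island, the longest such stretch of the region. Another, of 26.0 kb, ran from 38971001 to 38997000, between the LY19WT island of highest ChIP density and the widest LY19WT island. Levels of the mark too low to be called would not appear in the lists. The longest type II stretch with no island in either line spanned 11.0 kb, from 53129401 to 53140400. The longest without a LY19WT island there, 19.4 kb from 52564001, was covered to 95.9% by LY19Y646F islands.

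Most islands of each line overlapped islands of the other. Of the 46 LY19WT islands of the type I region, 44 (95.7%) shared at least 1 bp with a LY19Y646F island, and of the 38 in the type II region, 37 (97.4%). Over the whole LY19WT list 39.1% did. Of the LY19Y646F islands, 61 of 72 (84.7%) and 55 of 57 (96.5%) overlapped a LY19WT island, against 56.5% of the list. Such shares rise with the share of a region that is covered. Of the type I region 55.4% lay under islands of both lines, and of the type II region 71.8%. The product of the covered shares of the lines is 45.9% and 67.9%, so most of the shared length goes with high coverage in each line. Over the genome 6.22% lay under islands of both lines, where the product is 2.42%. Relative to the product, the shared length was larger over the genome than in the keratin regions, but coverage fixed that order. The shared share cannot exceed the smaller covered share, which was 67.0% in the type I and 81.9% in the type II region. Even full overlap could not have reached the genome value there, so the comparison does not show whether the lines agreed less in these regions. The Jaccard index divides the length under both lists by the length under at least 1 of them, and it too rises with coverage. It was 0.692 in the type I and 0.771 in the type II region, against 0.245 over the genome. In the left and right flanks it was 0.141 and 0.195 for type I, and 0.616 and 0.468 for type II. Of 2409 tiles of 1 Mb with islands, 24 had an index at least as high as the type I region, and of 2995 tiles of the type II length, 10. Of these tiles, whose edges were not set to gene clusters, 0 overlapped the keratin region itself. The type I region was covered to 11.6% by LY19WT alone and to 13.0% by LY19Y646F alone, and the type II region to 11.1% and 10.2%.

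Islands seen in 1 line alone were few. LY19Y646F had 11 in the type I region, with a median width of 4.4 kb, a longest of 20 kb and folds from 1.41 to 2.84. LY19WT had 2, from 39121801 to 39127600 with a fold of 1.79 and from 39418801 to 39421800 with a fold of 3.79. The latter was the second highest LY19WT fold of the region, at 163 ChIP reads over 14 input reads in 3.0 kb. The type II region had 1 island in LY19WT alone, from 52695601 to 52698000, with a fold of 4.20 on 129 ChIP and 10 input reads. LY19Y646F had 2 alone there, at the right edge, with folds of 1.84 and 1.94. High folds in such narrow islands rest on few input reads.

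Similar coverage was made of fewer and broader islands in LY19WT as deposited. Median island width in the type I region was 10.4 kb (quartiles 5.45 and 17.2) over 46 LY19WT islands and 7.1 kb (4.4 and 11.7) over 72 LY19Y646F islands. The type II region held 38 and 57 islands, with median widths of 9.4 kb (5.3 and 21.2) and 8.8 kb (5.8 and 13.0). The median island measured 5.8 kb in each whole list. Islands wider than 20 kb made up 9 of 46 and 10 of 38 in LY19WT, against 9.75% of its list, and 6 of 72 and 8 of 57 in LY19Y646F, against 5.06%. They held 51.9% and 68.3% of the island length of the 2 regions in LY19WT, and 27.4% and 37.2% in LY19Y646F. When gaps of up to 5 kb were closed there were 14 and 18 islands in the type I region and 8 and 13 in the type II region. The order of the type I medians then turned. Median widths were 19.8 kb in LY19WT and 28.9 kb in LY19Y646F in the type I region, and 51.1 and 48.0 kb in the type II region. ChIP density was also lower in LY19Y646F, at 44.8 against 73.5 reads per kb in the type I region, and its part in the island number was not tested.

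The widest LY19WT islands each met several LY19Y646F islands. The widest of the type I region ran from 38997001 to 39098200, 101.2 kb, and held 8056 ChIP reads and 850 input reads, an authors' fold of 3.08. Its length held 7 LY19Y646F islands that covered 91.3% of it, among them the second widest of that line, from 39043201 to 39077200. The next, of 37.8 kb from 39580001, met 4 LY19Y646F islands and was covered to 87.8%, and that of 36.4 kb from 38846401 met 3 and was covered to 70.9%. In the type II region the 3 widest LY19WT islands, from 52866201 to 52928800, from 52938801 to 53040400 and from 53041201 to 53105600, measured 62.6, 101.6 and 64.4 kb. They met 9, 9 and 7 LY19Y646F islands, which covered 77.6%, 93.5% and 77.3% of them. Folds of these 3 LY19WT islands were 2.91, 3.11 and 3.02.

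The widest LY19Y646F islands were shorter, and LY19WT islands covered at least 51.9% of each. In the type I region they measured 39.0 kb from 39554001, 34.0 kb from 39043201 and 33.8 kb from 39627601, and LY19WT covered 88.2%, 100% and 55.6% of them. These 3 met 4, 1 and 4 LY19WT islands, so several islands of 1 line under a wide island of the other occurred in both directions. In the type II region the widest, from 52700601 to 52749400, measured 48.8 kb and lay within a LY19WT island of 49.8 kb from 52699801 to 52749600. That pair was the longest stretch covered in both lines, with folds of 2.43 in LY19Y646F and 2.94 in LY19WT. The others were the island of 42.0 kb at the region start, which met 3 LY19WT islands, and one from 52808801 to 52848600. The latter met 2 and was covered to 98.0% in LY19WT.

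Raw ChIP density over the members was lower in LY19Y646F, and input density was close to equal. In the type I region 49432 ChIP reads fell in LY19WT islands, 73.5 reads per kb (95% exact Poisson interval 72.9 to 74.2), and 30712 in LY19Y646F islands, 44.8 per kb (44.3 to 45.3). Type II densities were 75.3 (74.7 to 76.0) and 46.0 (45.5 to 46.5) reads per kb. The intervals hold counting error only, and reads without molecular identifiers are not independent molecules. Input reads per kb were 8.33 (8.12 to 8.56) in LY19WT and 8.57 (8.35 to 8.79) in LY19Y646F in the type I region, and 8.29 (8.07 to 8.51) and 7.88 (7.67 to 8.10) in the type II region. Relative to the autosomal median over islands of the same line, the median member stood at 0.986 and 0.999 in the type I and at 0.979 and 0.946 in the type II region. The ratio of ChIP densities, LY19Y646F over LY19WT, was 0.610 in the type I and 0.611 in the type II region, and 0.670 over all islands. Library depth enters that ratio, and its part was not tested.

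ChIP density varied more between LY19WT than between LY19Y646F members in the type I region, where the highest value was 2.48 times the lowest in LY19WT and 1.51 times in LY19Y646F. In this region LY19WT islands ran from 47.7 to 118 reads per kb with a median of 65.4, and LY19Y646F islands from 35.2 to 53.1 with a median of 44.1. Type II ranges were 52.62 to 89.3 (median 67.4) and 35.4 to 56.6 (median 45.0). Wider LY19WT islands were denser, with a Spearman correlation of width and ChIP density of 0.64 over 46 type I and 0.65 over 38 type II islands. In LY19Y646F this correlation was 0.15 over 72 and 0.19 over 57 islands. Over the lists it was 0.48 in LY19WT and 0.09 in LY19Y646F. These are descriptions across islands that share a library and a calling threshold.

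**Figure D3:**
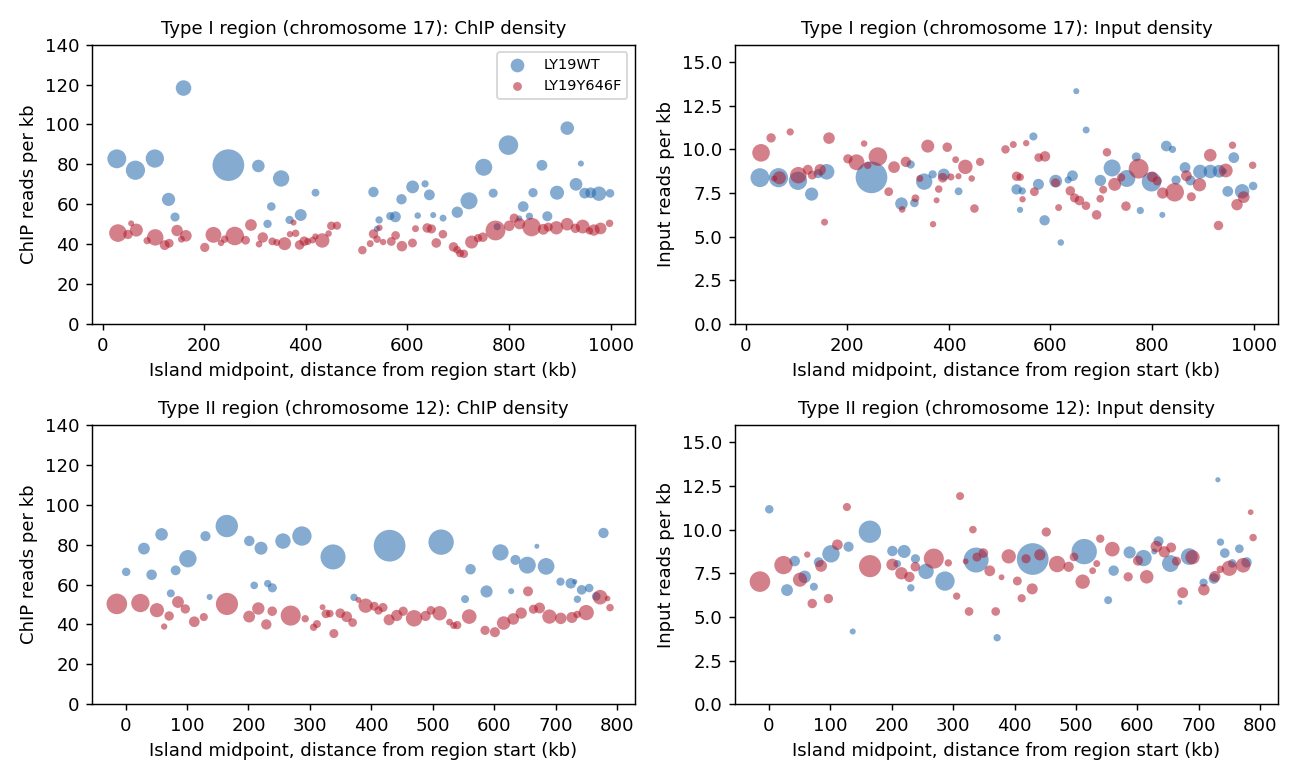
ChIP (left) and input (right) reads per kb of each member island by its midpoint, in kb from the region start, with point area rising with island width, for LY19WT (blue) and LY19Y646F (red). ChIP densities of LY19WT reach 118 reads per kb in the type I region, where LY19Y646F stays between 35.2 and 53.1, while input densities of the lines overlap.

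Enrichment over input, the ChIP to input read ratio divided by the library ratio of the list, was lower in LY19Y646F in both regions. The pooled fold over members was 2.87 in LY19WT and 2.0 in LY19Y646F in the type I region, a log2 ratio of -0.52 (counting interval -0.58 to -0.47). The type II values were 2.96 and 2.23, with a log2 ratio of -0.41 (-0.47 to -0.35). Over all islands the log2 ratio was -0.39, and over chromosomes 17 and 12 it was -0.36 and -0.41. The direction turned when ChIP density was scaled by total ChIP reads in islands, to 0.40 in both regions. This turn was not particular to the keratin regions. Over all islands that scaling leaves the ratio of covered lengths, 555 Mb in LY19WT to 384 Mb in LY19Y646F, so it is positive there too. Over island pairs that overlapped by at least 50% of both, its median was 0.55 genome-wide, 0.62 in the type I and 0.40 in the type II region. That scaling divides by a total that is smaller in LY19Y646F for the whole list, and no spike-in or other external scale was used here. The median member fold was above that of 75.2% of all LY19WT islands in the type I and 81.7% in the type II region, and above 60.5% and 73.3% of LY19Y646F islands.

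The LY19WT type I member of highest fold met 3 LY19Y646F islands of lower fold. The island from 38947601 to 38971000 on chromosome 17 had 2767 ChIP reads over 204 input reads, 118 ChIP reads per kb and a fold of 4.41, the highest fold and density of the LY19WT type I members. The 3 LY19Y646F islands covered 89.7% of it. They began at 38940601, 38953401 and 38957801, with folds of 2.02, 2.78 and 1.58. The last of these, up to 38970200, overlapped it by at least 50% of both, and their log2 ratio of -1.48 was the lowest of the pairs described next. The third highest LY19WT fold of the region, 3.74, belonged to the island from 39099201 to 39114000, covered to 45.9% in LY19Y646F. The highest LY19Y646F folds there were 3.24 from 39726801, 3.01 from 39167401 and 2.84 from 39247201, on 44, 16 and 41 input reads. The last of these had no LY19WT island. Those of 3.24 and 3.01 met LY19WT islands of lower fold, 2.60 and 1.98. Islands picked for a high fold in 1 line are likely to meet lower folds in the other, whichever line is picked from. In the type II region the highest LY19WT folds, 4.58 from 52929601, 4.42 from 53228601 and 4.20 from 52695601, came from islands of 4.2, 1.2 and 2.4 kb with 16, 7 and 10 input reads. The highest LY19Y646F folds were 3.26 from 52882801, 3.01 from 52653401 and 2.95 from 52968801, each wholly covered in LY19WT. They too rested on few input reads, 34, 46 and 34.

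Closely matched islands also had lower folds in LY19Y646F. In the type I region the share of such pairs was near the background, and in the type II region the median ratio was. Pairs that overlapped by at least 50% of both islands numbered 24 in the type I and 13 in the type II region. The authors' fold was lower in LY19Y646F in 18 of 24 and in 12 of 13, against 72.7% of 8368 pairs over the genome. The median log2 ratio was -0.32 in the type I region, with a range from -1.48 to 0.71, and -0.28 in the type II region, from -1.04 to 0.27. Over all pairs it was -0.27. After scaling by total ChIP reads in islands, 1 of 24 and 0 of 13 were lower, against 3.62%. LY19Y646F islands were narrower in 18 of 24 type I and 6 of 13 type II pairs, against 50.2% of all pairs.

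Over the 24 type I pairs the Spearman correlation of the folds was -0.50, and over the 13 type II pairs -0.07, and 0.13 over 8368 pairs. The Spearman correlation of ChIP densities over the same pairs was 0.16 in both regions, against 0.32 over the 8368 pairs. These are descriptions over few islands of 1 library set per line. Each fold carries the input count of its own line, and the Spearman correlation of input densities was -0.18 and 0.24, against 0.11 over the 8368 pairs. The highest ratio among pairs, 0.71, belonged to the LY19WT island from 39468401 to 39472000, with folds of 1.55 in LY19WT and 2.54 in LY19Y646F.

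**Figure D4:**
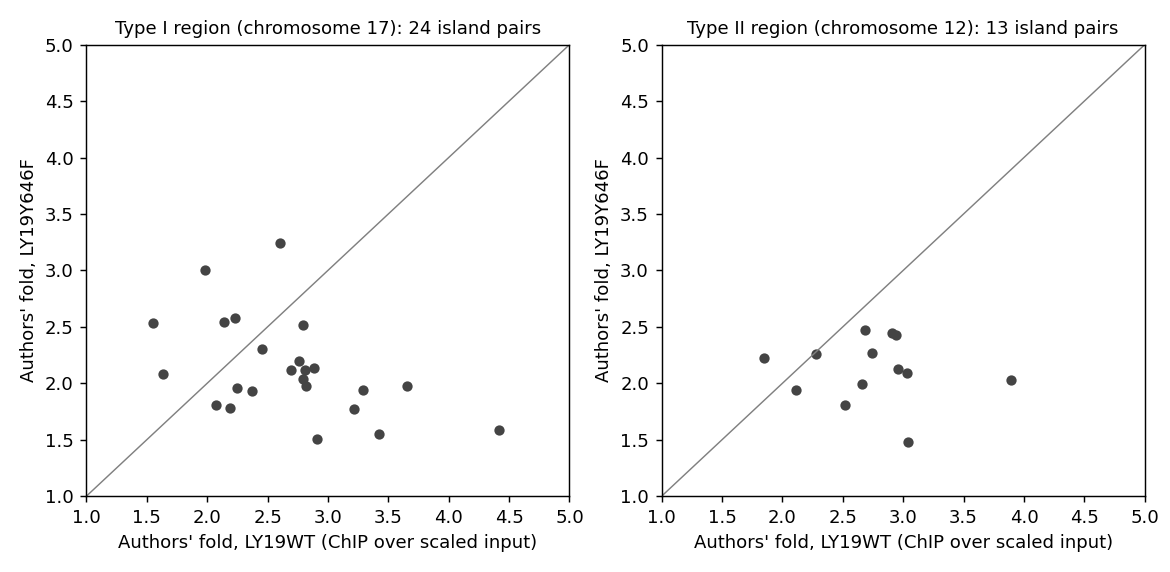
Authors' fold (ChIP over scaled input) in LY19WT on the x axis and LY19Y646F on the y axis for island pairs that overlap by at least 50% of both, with the line of equal folds. Of the 24 type I pairs 18 lie under the line, and of the 13 type II pairs 12.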

How the data were processed

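H3K27me3 ChIP-seq islands of LY19WT and LY19Y646F were analysed, 1 deposited list per line. The submitters' processing notes name SICER, bedtools (both without a version), Bowtie2 2.2.9, SAMtools 1.3.1 and hg19. Per the labels, replicates were merged and the lists are SICER islands over input at FDR 0.001. ChIP and input values are raw read counts per island, per the file headers, which also name a fold, an FDR and a p-value, all set by the authors. The deposited fold is a linear ratio of ChIP over input counts, divided by a constant of 3.07 in LY19WT and 2.62 in LY19Y646F that follows from the 3 columns and is taken as the library ratio. Islands held 37556030 and 17410034 ChIP reads and 4949411 and 3527109 input reads. Library totals are not given in the sources used here.

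Covered length was computed after clipping islands to a region, and reads were summed over whole islands. Coordinates are 1-based. Windows followed a fixed 100 kb grid over the part of each chromosome that islands span, and tiles of the region length began at the first island of each autosome. Islands named are the 3 widest and the 3 of highest fold per region and line, the longest shared and empty stretches and those at the edges. Islands of 1 line alone and the pairs with the lowest and highest fold ratio were named after their values were seen. The members and lists were chosen with earlier results of these data known. Steps were tested on simulated lists with planted coverage. Software was scipy 1.17.1, pandas 2.3.3, numpy 2.4.6 and matplotlib 3.10.9 under Python 3.11.15. Alternatives were other FDR limits, joined islands, lists of equal length, shifted edges, removal of islands whose input exceeded 3 times the autosomal median, other scalings, windows and flanks.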

Additional observations from a re-analysis of the deposited data

How the results depend on the processing

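No paired analysis was possible because replicates had been merged before islands were called, so neither a replicate block nor a list without a replicate could be made. The type I coverage difference (1.44 points) was -0.84 at FDR up to 1e-10, -2.89 without the fifth 100 kb window, chosen after seeing the data, 5.5 with islands joined across 5 kb and 9.74 with the LY19WT list limited to the covered length of LY19Y646F. The type II difference (-0.99) was -2.76 at FDR up to 1e-10, 6.96 with the limited list, 1.93 in the widened and -6.99 in the narrowed region. The cause was not tested. The Jaccard index of the type I region was 0.782 with joined islands, 0.629 with the limited list and 0.671 in the narrowed region. That of the type II region was 0.858, 0.698 and 0.802, with 0.755 at FDR up to 1e-10 and 0.749 in the widened region. Removing islands of input over 3 times the autosomal median took out no member, so that setting could not move either measure. The highest member input was 13.3 reads per kb in LY19WT, against an autosomal median of 8.41. In LY19Y646F it was 11.9 against 8.42.

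The log2 ratio of enrichment (-0.52 and -0.41) was 0.40 in both regions when scaled by total ChIP reads and -0.75 and -0.64 with no library ratio, a shift set by that constant. Flank differences were 28.9 and 10.8 points at 250 kb and 7.15 and -6.1 at 1 Mb. Joined across 5 kb, islands numbered 14 and 18 in the type I and 8 and 13 in the type II region, with median widths of 19.8, 28.9, 51.1 and 48 kb. The other 33 of 65 values stayed within 1.5 times the count, within the counting interval or within a binomial interval. That interval was taken over 200 bp steps for covered shares and the Jaccard index. For shares of windows it was taken over the 10 or 7 windows of 100 kb and was wide. The LY19Y646F type I share thus counted as unchanged at 90% with 100 kb and 75% with 50 kb windows. With merged replicates, no value carries a biological error, and depth could not be made equal without reads.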
